A study of Mus musculus with 12 samples.

Results

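The genes described here are the 36 mouse genes that carry glucose into the cell and through glycolysis, handle lactate, admit pyruvate to the mitochondrion and run the pentose phosphate pathway. They were taken by gene symbol from the 46078 genes of the count tables, with a minimum of 120 counts summed over the 12 libraries, and all 36 were found. They form 5 branches: uptake (2 genes), glycolysis (17), lactate (4), pyruvate entry (6) and pentose phosphate (7). RNA was sequenced from CD8 T cells, the cytotoxic T lymphocytes, of C57BL/6 spleen after 7 days in culture. All 4 groups, with 3 libraries each, received the interleukins IL-2 and IL-15, which sustain T cells. The TGFβ + RA group also received the cytokine transforming growth factor beta (TGFβ), whose receptors activate SMADs, and retinoic acid (RA), the ligand derived from vitamin A of the nuclear RAR receptors. The TGFβ group received only TGFβ beside the interleukins, the RA group only RA, and the IL-2 + IL-15 group neither. No group lacked the interleukins.

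Glucose enters through transporters of the SLC2A family, is trapped by hexokinase and is split and oxidised to pyruvate. Pyruvate is either reduced to lactate, which leaves through monocarboxylate transporters, or enters the mitochondrion, where the pyruvate dehydrogenase complex turns it into acetyl-CoA. The pentose phosphate pathway branches off after hexokinase and yields NADPH and ribose for nucleotides. Activated and cycling T cells are known for high rates of aerobic glycolysis, with Myc and the hypoxia-inducible factor HIF-1 among the factors that raise its genes, while resting and memory T cells rely more on oxidation in the mitochondrion.

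The libraries held 18300206 to 33477037 counts, and every member passed the filter on low counts, its 12 libraries summing to between 1913 counts for Ldhb and 280188 for Gpi1. CD8 T cell markers were present in all libraries, the 8 genes of that list (Cd3d, Cd3e, Cd3g, Cd8a, Cd8b1, Cd2, Trac and Lck) summing to 8710.1 to 9024 CPM (counts scaled to library size with TMM factors) in TGFβ + RA, 7845 to 8194 in TGFβ, 5395 to 5616 in RA and 5422 to 6024 in IL-2 + IL-15. RA replicate 3 stood apart most from its own group. Counts of members called in RA against IL-2 + IL-15 and in the interaction are also given without it. TGFβ + RA replicate 3 held myeloid RNA (323 counts of Lyz2 and 177 of S100a9, against at most 23 and 1 in any other library), although Adgre1 and Csf3r had 0 counts and Csf1r 6 in it. The 10 myeloid markers summed to 3.33 to 27.001 CPM in TGFβ + RA, 7.49 to 11.8 in TGFβ, 11.3 to 25.7 in RA and 38.4 to 49.1 in IL-2 + IL-15. Itgam, which CD8 T cells can also express, made up most of the sum in every library but TGFβ + RA replicate 3. It averaged 3.99, 9.72, 19.4 and 42.9 CPM in that order of groups. Of the CD4 T cell list (Cd4, Zbtb7b, Cd40lg and Foxp3), Cd4 had 7 to 70 counts and Cd40lg 4 to 36 per library. The list summed to 195 to 267 CPM in TGFβ + RA, 84.8 to 88.05 in TGFβ, 73.5 to 91.3 in RA and 67.7 to 75.9 in IL-2 + IL-15. Foxp3 averaged 214, 54.3, 0.468 and 0.914 CPM in that order of groups, and it alone of the list averaged higher in TGFβ + RA and TGFβ than in IL-2 + IL-15. Zbtb7b averaged 27.8, 31.3, 75.6 and 68.3 CPM, Cd4 0.463, 0.395, 2.51 and 1.34, and Cd40lg 0.440, 0.388, 0.898 and 0.823. The NK list summed to 57.9 to 73.3 CPM in TGFβ + RA, 50.7 to 61.4 in TGFβ, 64.4 to 164 in RA and 61.1 to 127 in IL-2 + IL-15. Among RA libraries it was highest in replicate 1 (164) and lowest in replicate 3 (64.4). The B cell list summed to at most 30.6 CPM in any library and the erythroid list to at most 0.478. In these bulk libraries fewer cells of a type and less RNA per cell cannot be told apart.

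Per base of exon, enzymes of glycolysis and Ldha led. Aldoa had the highest mean over the 12 libraries at 240.3 CPM per kilobase, followed by Gapdh (220.2), Ldha (175), Gpi1 (141) and Pkm (134). The lowest were Pfkfb4 (1.72), Mpc2 (2.47), Ldhb (3.95) and Hk2 (5.29 CPM per kilobase). The values that follow are CPM not divided by length unless a sentence says otherwise.

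TGFβ + RA lowered most of these genes relative to IL-2 + IL-15, and the branches did not move alike. All 36 members together averaged 5069 ± 11.1 CPM in TGFβ + RA, 6209 ± 87.7 in TGFβ, 8942 ± 599 in RA and 8729 ± 110.3 in IL-2 + IL-15 (summed level, SD, n = 3 each). By the quasi-likelihood test of edgeR, with p adjusted by the Benjamini-Hochberg method over the 14009 genes tested and called under 0.05, 28 of 36 members (77.8%) were lower in TGFβ + RA than in IL-2 + IL-15, against 32.4% of all genes, and 2 (5.56%) were higher, against 30.8%. Without TGFβ + RA replicate 3, the library with myeloid RNA, 28 were lower and 2 higher. The median member had a log2 fold change of -0.64, where the median of all genes tested was 0.0016. Lower calls took 2 of 2 uptake genes, 15 of 17 in glycolysis, 3 of 4 in lactate, 3 of 6 in pyruvate entry and 5 of 7 in pentose phosphate. Their medians were -0.81, -0.81, -0.91, -0.21 and -0.24 on the log2 scale, so the last 2 branches moved by the smaller amounts. The higher members were Mpc2, a subunit of the mitochondrial pyruvate carrier, and G6pdx, the entry enzyme of the pentose phosphate pathway.

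TGFβ alone lowered most genes of uptake, glycolysis and lactate, and its median change over the 36 was smaller in size than that of TGFβ + RA. Against IL-2 + IL-15, 25 members (69.4%) were lower, beside 22.4% of all genes, and 0 were higher, beside 20.7%. For the direction with no call, edgeR's quasi-likelihood test gave 1 member at an unadjusted p under 0.05, G6pdx, and the DESeq2 Wald test called 0. The lower calls took 2 of 2 uptake genes, 16 of 17 in glycolysis and 3 of 4 in lactate. In pentose phosphate they took 3 of 7, and in pyruvate entry 1 of 6 (16.7%), below the share of all genes. The 1 in pyruvate entry, Pdk1, was lost in 3 of 12 alternatives. The median log2 fold change was -0.40 over the 36. TGFβ + RA against TGFβ called 20 members lower (55.6%, beside 22.7% of all genes) and 3 higher (8.33%, beside 20.3%), with a median of -0.24. TGFβ + RA against RA called 28 lower (77.8%, beside 30.8%) and 1 higher (2.78%, beside 29.4%), with a median of -0.69. The last of these higher calls, Ldhb, was lost when any of RA replicates 1 and 3 or TGFβ + RA replicates 1, 2 and 3 was left out, which left 0. These comparisons share libraries, so their values stand side by side and are not independent of each other.

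RA without TGFβ changed few of these genes. It called 4 of 36 members higher (11.1%) and 5 lower (13.9%), beside 12.4% and 14.3% of all genes, so neither share stood above the background, and the median log2 fold change was 0.019. Higher in RA than in IL-2 + IL-15 were Slc2a3, Hk1, G6pdx and Pgd. Lower were Aldoc, Pfkp, Eno3, Slc16a3 and Pfkfb3. Without RA replicate 3 the higher calls came to 9, the 5 added being Gpi1, Gapdh, Eno1, Tkt and Pgls, and the lower calls to 4. The lower calls came to 3 without IL-2 + IL-15 replicate 2, without RA replicate 1 or without RA replicate 2, and to 2 without IL-2 + IL-15 replicate 3. With the replicate number as a block Ldhb was also lower (log2 fold change -0.41, adjusted p = 0.0298 in edgeR's quasi-likelihood test), against -0.40 and 0.103 without it.

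**Figure D1:**
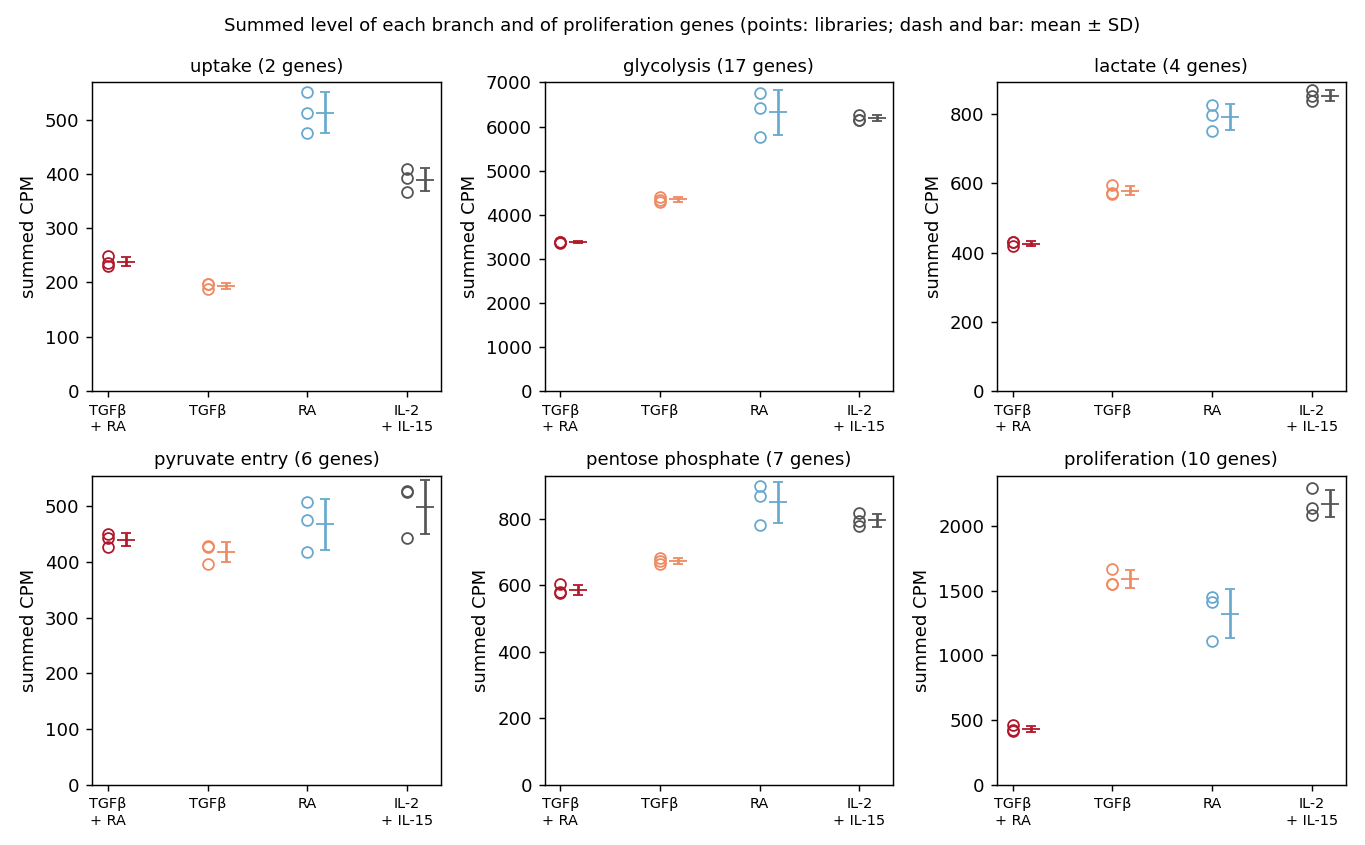
Summed CPM of the members of each branch, and of 10 proliferation genes, by library (points) with the group mean and SD (dash and bar) for TGFβ + RA, TGFβ, RA and IL-2 + IL-15, 3 libraries each. Glycolysis summed to 3377 CPM in TGFβ + RA, 4345 in TGFβ, 6319 in RA and 6192 in IL-2 + IL-15, while the groups of pyruvate entry lie much closer together.

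The effect of RA differed by whether TGFβ was present. The interaction, which is the log2 difference between the effect of RA with TGFβ (TGFβ + RA against TGFβ) and its effect without TGFβ (RA against IL-2 + IL-15), was below 0 and called for 15 of 36 members (41.7%), beside 12.3% of all genes, and above 0 for 0, beside 6.95%. For the direction with no call, edgeR's quasi-likelihood test gave 1 member at an unadjusted p under 0.05, Pdk1, and the DESeq2 Wald test called 0. The called members were Slc2a1 in uptake, 10 of 17 in glycolysis, 2 of 4 in lactate (Ldha and Slc16a3), Pdk3 in pyruvate entry and Tkt in pentose phosphate. Within glycolysis they took 5 of the 6 genes that lead from triose phosphate to pyruvate (Gapdh, Pgk1, Pgam1, Eno1 and Pkm, but not Eno3) and 4 of the 9 that lead from glucose to triose phosphate (Hk2, Aldoa, Aldoc and Tpi1), a grouping by step that was made after results were known. Without RA replicate 3, 22 members were called below 0 and 2 above, without IL-2 + IL-15 replicate 1 there was 1 above, and without TGFβ + RA replicate 3 there were 13 below and 0 above.

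**Figure D2:**
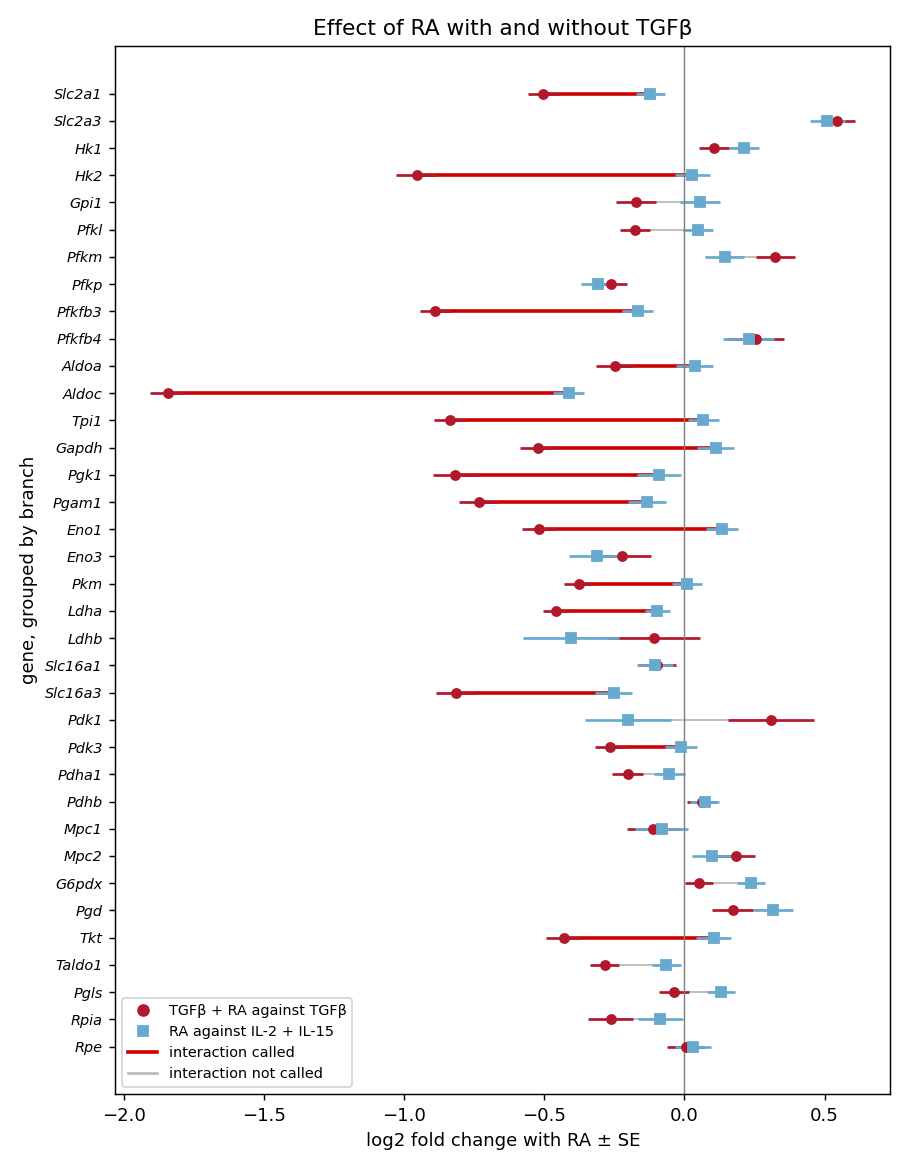
Effect of RA on each member on the log2 scale, with TGFβ (TGFβ + RA against TGFβ) and without it (RA against IL-2 + IL-15), with bars of 1 SE from edgeR and a red line where the interaction was called. For Aldoc, Hk2, Tpi1 and Pgk1 the effect was -1.84, -0.96, -0.84 and -0.82 with TGFβ, and for Slc2a3 it was above 0 in both settings (0.55 with TGFβ and 0.51 without).

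The 2 uptake genes were both lower with TGFβ, and RA moved them in opposite directions when TGFβ was present. Slc2a1 encodes GLUT1, the basal glucose transporter that T cells induce on activation, and Slc2a3 encodes GLUT3, a transporter of high glucose affinity. Slc2a3 (ENSMUSG00000003153; GRCm38 chr6:122727809-122801640, minus strand) had 205, 189.6 and 195 CPM in TGFβ + RA, 129, 139.6 and 135 in TGFβ, 469.7, 435 and 404 in RA, and 285, 310.5 and 323 in IL-2 + IL-15. No group overlapped another: TGFβ libraries were the lowest, TGFβ + RA next, then IL-2 + IL-15, and RA the highest. The log2 fold changes were -1.19 ± 0.064 (SE) for TGFβ against IL-2 + IL-15, -0.64 ± 0.063 for TGFβ + RA relative to IL-2 + IL-15, 0.51 ± 0.062 for RA against IL-2 + IL-15, 0.55 ± 0.063 for TGFβ + RA against TGFβ and -1.15 ± 0.063 for TGFβ + RA against RA, all called. The interaction of 0.036 ± 0.089 was not called (adjusted p = 0.82 in edgeR's quasi-likelihood test).

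Slc2a1 (ENSMUSG00000028645; chr4:119108711-119137983, plus strand) had 42.8, 40.9 and 41.8 CPM in TGFβ + RA, 58.3, 57.9 and 61.5 in TGFβ, 80.7, 76.9 and 70.7 in RA, and 81.4, 81.8 and 85.3 in IL-2 + IL-15. Its TGFβ + RA libraries lay below all others, TGFβ libraries next, and the RA libraries all lay just below those of IL-2 + IL-15. Slc2a1 was lower in TGFβ + RA than in TGFβ (-0.50 ± 0.054) and than in IL-2 + IL-15 (-0.99 ± 0.053), and lower in TGFβ than in IL-2 + IL-15 (-0.48 ± 0.052). RA against IL-2 + IL-15 gave -0.12 ± 0.052 and was not called (adjusted p = 0.103 in edgeR's quasi-likelihood test), and the interaction was -0.38 ± 0.075 (adjusted p = 0.00304). TGFβ + RA against TGFβ thus called this pair in opposite directions. Per kilobase of exon, the ratio of Slc2a1 to Slc2a3 was 0.440 in TGFβ + RA, 0.909 in TGFβ, 0.361 in RA and 0.559 in IL-2 + IL-15, so Slc2a3 was the more abundant of the 2 in all groups and least so with TGFβ alone.

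Aldoc and Hk2, which fell most in TGFβ + RA against IL-2 + IL-15, belong to the steps from glucose to triose phosphate. The median log2 fold change of those steps was -0.75, against -1.06 for the steps from triose phosphate to pyruvate. Hexokinase traps glucose as glucose 6-phosphate: Hk1 encodes the isoform found in most tissues and Hk2 the inducible one, which is raised in activated T cells. Hk2 (ENSMUSG00000000628; chr6:82725025-82774454, minus strand) had 10.6, 10.4 and 11.4 CPM in TGFβ + RA, 21.3, 21.8 and 19.8 in TGFβ, 48.5, 50.5 and 44.2 in RA, and 48.6, 46.9 and 45.01 in IL-2 + IL-15. The 3 TGFβ + RA libraries lay lowest and the TGFβ libraries next, with no overlap, while the RA and IL-2 + IL-15 libraries overlapped. Hk2 was lower, with log2 fold changes of -2.12 ± 0.07 in TGFβ + RA against IL-2 + IL-15 (adjusted p = 3.76e-11 in edgeR's quasi-likelihood test), -0.96 ± 0.072 against TGFβ and -2.14 ± 0.07 against RA. TGFβ against IL-2 + IL-15 gave -1.16 ± 0.065, and the interaction was -0.98 ± 0.10.

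Hk1, in contrast, had 212, 207 and 209.98 CPM in TGFβ + RA, 197, 191 and 196 in TGFβ, 265, 248 and 225 in RA, and 207, 219 and 210.4 in IL-2 + IL-15. Its TGFβ + RA and IL-2 + IL-15 libraries overlapped, and RA libraries lay highest. Hk1 was higher in RA than in IL-2 + IL-15 (0.21 ± 0.054) and lower in TGFβ + RA than in RA (-0.23 ± 0.054), while TGFβ + RA against IL-2 + IL-15 gave -0.018 ± 0.054 and was not called (adjusted p = 0.788 in edgeR's quasi-likelihood test). Scaling by library totals alone turned the last value to 0.052. The per-kilobase ratio of Hk1 to Hk2 was 13.6 in TGFβ + RA, 6.51 in TGFβ, 3.60 in RA and 3.17 in IL-2 + IL-15.

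The aldolases, which split fructose 1,6-bisphosphate, also moved by unequal amounts. Aldoc (ENSMUSG00000017390; chr11:78322968-78327781, plus strand), a form best known from brain, had 19.8, 18.2 and 18.4 CPM in TGFβ + RA, 65.4, 68.9 and 67.7 in TGFβ, 80.4, 87.3 and 75.03 in RA, and 109.98, 109 and 105 in IL-2 + IL-15. None of the 4 groups overlapped, with TGFβ + RA far below the others and IL-2 + IL-15 highest. Its log2 fold change was -2.52 ± 0.062 in TGFβ + RA against IL-2 + IL-15, the most negative of the 36, -1.84 ± 0.062 against TGFβ and -2.11 ± 0.062 against RA. TGFβ and RA each lowered it by less against IL-2 + IL-15 (-0.68 ± 0.056 and -0.41 ± 0.056), and the interaction was -1.43 ± 0.083 (adjusted p = 5.44e-07 in edgeR's quasi-likelihood test). Aldoa, the main aldolase of muscle and of most cells, averaged 522 ± 11.1 CPM in TGFβ + RA, 621 ± 17.8 in TGFβ, 838 ± 88.1 in RA and 817 ± 25.8 in IL-2 + IL-15 (SD, n = 3 each), and the per-kilobase ratio of Aldoa to Aldoc was 31.1, 10.3, 11.6 and 8.49 in that order. Aldoa was lower in TGFβ + RA than in IL-2 + IL-15 (-0.65), and its interaction of -0.29 (adjusted p = 0.0473) was lost in 12 of 17 alternatives.

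**Figure D3:**
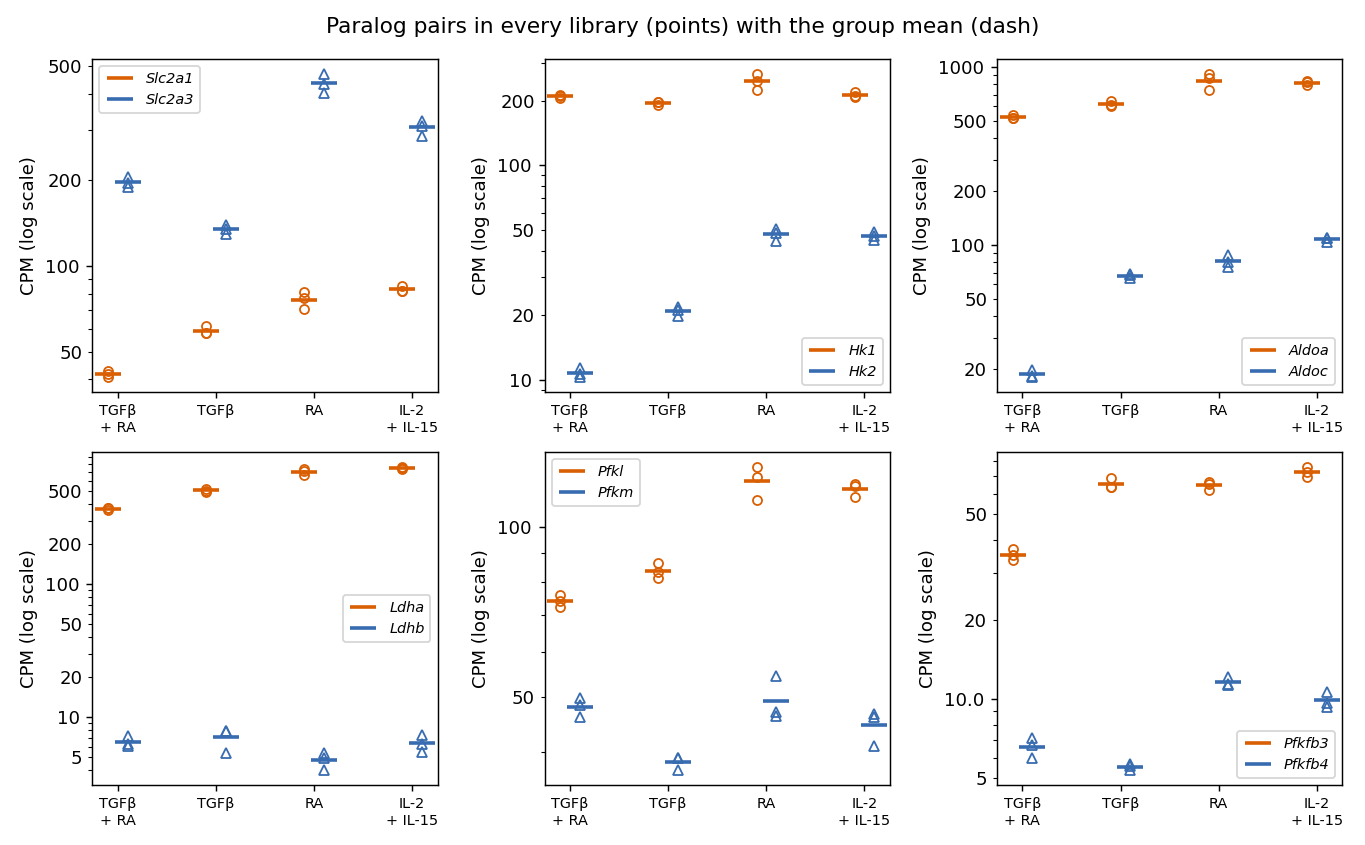
CPM on a log axis of 6 pairs of related members in every library (points) with the group mean (dash), for TGFβ + RA, TGFβ, RA and IL-2 + IL-15. Hk1 averaged 195 to 246 CPM over the groups while Hk2 averaged 10.8 CPM in TGFβ + RA and 46.8 in IL-2 + IL-15, and Slc2a3 lay above Slc2a1 in all groups.

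Phosphofructokinase, the committed step of glycolysis, has 3 subunit genes named for liver (Pfkl), muscle (Pfkm) and platelet (Pfkp). Pfkl had 75.8, 74.01 and 72.1 CPM in TGFβ + RA, 81.1, 86.5 and 83.2 in TGFβ, 112, 128 and 123 in RA, and 113, 118 and 119 in IL-2 + IL-15. The TGFβ + RA libraries lay below the TGFβ libraries, and both lay below the overlapping RA and IL-2 + IL-15 libraries. Pfkp had 266, 268 and 274 CPM in TGFβ + RA, 300.1, 339 and 332 in TGFβ, 343, 377 and 381 in RA, and 429, 467 and 468 in IL-2 + IL-15, an order of TGFβ + RA, TGFβ, RA and IL-2 + IL-15 with no overlap. Pfkm, the lowest of the 3 in CPM, had 48.3, 46.03 and 49.9 CPM in TGFβ + RA, 37.2, 39.03 and 38.96 in TGFβ, 46.3, 47.01 and 54.6 in RA, and 46.7, 40.97 and 46.03 in IL-2 + IL-15. Its TGFβ libraries lay lowest, and the other groups overlapped. TGFβ + RA against TGFβ therefore called Pfkl (-0.18 ± 0.053) and Pfkp (-0.26 ± 0.059) lower and Pfkm higher (0.32 ± 0.07, adjusted p = 0.00203 in edgeR's quasi-likelihood test), with the call of Pfkl lost in 2 of 12 alternatives. Against IL-2 + IL-15, TGFβ + RA lowered Pfkl (-0.66) and Pfkp (-0.75), and Pfkm was not called (0.11).

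The PFKFB enzymes make and break fructose 2,6-bisphosphate, the strongest activator of phosphofructokinase, and Pfkfb3 is the form that favours its synthesis. Pfkfb3 averaged 35.2 ± 1.64 CPM in TGFβ + RA, 65.2 ± 3.04 in TGFβ, 64.5 ± 2.40 in RA and 72.4 ± 3.14 in IL-2 + IL-15 (SD, n = 3 each). The log2 fold change was -1.04 ± 0.056 for TGFβ + RA relative to IL-2 + IL-15, but -0.15 ± 0.054 for TGFβ and -0.17 ± 0.054 for RA, both lost in 7 of 12 alternatives, and the interaction was -0.72 ± 0.078 (adjusted p = 2.88e-05 in edgeR's quasi-likelihood test). Pfkfb4 averaged 6.59 ± 0.562, 5.55 ± 0.143, 11.6 ± 0.432 and 9.89 ± 0.660 CPM in the same order of groups. It was lower in TGFβ + RA (-0.58 ± 0.095) and in TGFβ (-0.84 ± 0.10) than in IL-2 + IL-15. Gpi1, the isomerase between hexokinase and phosphofructokinase, averaged 639 ± 32.6 CPM in TGFβ + RA, 721 ± 26.3 in TGFβ, 1164 ± 126 in RA and 1120.3 ± 35.1 in IL-2 + IL-15, and was lower with TGFβ (-0.64) and TGFβ + RA (-0.81) than in IL-2 + IL-15.

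From triose phosphate to pyruvate, 6 of 6 genes were lower in both TGFβ + RA and TGFβ than in IL-2 + IL-15. Of all genes, 32.4% and 22.4% were lower in these comparisons. The grouping by step was made after results were known. Tpi1 interconverts the triose phosphates, Gapdh oxidises glyceraldehyde 3-phosphate, Pgk1 makes the first ATP, Pgam1 and the enolases Eno1 and Eno3 rearrange the product, and Pkm makes pyruvate. Tpi1, counted with the step before, averaged 66.6 ± 1.07 CPM in TGFβ + RA, 119 ± 4.89 in TGFβ, 211 ± 16.01 in RA and 201 ± 5.43 in IL-2 + IL-15 (SD, n = 3 each). Pgk1 averaged 99.99 ± 2.48, 176 ± 3.04, 271 ± 30.1 and 289 ± 27.9 CPM, and Gapdh 507 ± 10.3, 728 ± 8.02, 1249 ± 135 and 1156 ± 35.4 CPM, in the same order. In all 3 the TGFβ + RA libraries lay below the TGFβ libraries, which lay below the rest, and RA overlapped IL-2 + IL-15. Relative to IL-2 + IL-15, the TGFβ + RA log2 fold changes were -1.59 ± 0.057 for Tpi1, -1.53 ± 0.08 for Pgk1, -1.22 ± 0.07 for Pgam1, -1.19 ± 0.066 for Gapdh, -0.92 ± 0.059 for Eno1, -0.75 ± 0.053 for Pkm and -0.55 ± 0.10 for Eno3. Pgam1 averaged 26.5, 44.1, 56.3 and 61.8 CPM in the same order of groups, Eno1 341, 489, 709.9 and 647, and Pkm 475, 616, 801 and 796. Relative to IL-2 + IL-15, TGFβ alone gave -0.76, -0.71, -0.49, -0.67, -0.40, -0.37 and -0.33 for Tpi1, Pgk1, Pgam1, Gapdh, Eno1, Pkm and Eno3.

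The interactions of these genes ran from -0.90 (Tpi1) through -0.73 (Pgk1), -0.65 (Eno1), -0.63 (Gapdh) and -0.60 (Pgam1) to -0.39 (Pkm), all called. Eno3, the enolase of muscle, averaged 27.001 ± 0.994 CPM in TGFβ + RA, 31.5 ± 2.81 in TGFβ, 31.8 ± 5.40 in RA and 39.5 ± 1.61 in IL-2 + IL-15, and its interaction was not called. Its calls against IL-2 + IL-15 in RA and in TGFβ were lost in 6 and 4 of 12 alternatives. Counts of Gapdh may include reads of its 90 pseudogene copies elsewhere in the genome (at least 95% identity over 100 bases or more), whose own counts came to 1.45% of those of Gapdh, and Pgam1 has 1 such copy with 1.18%.

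**Figure D4:**
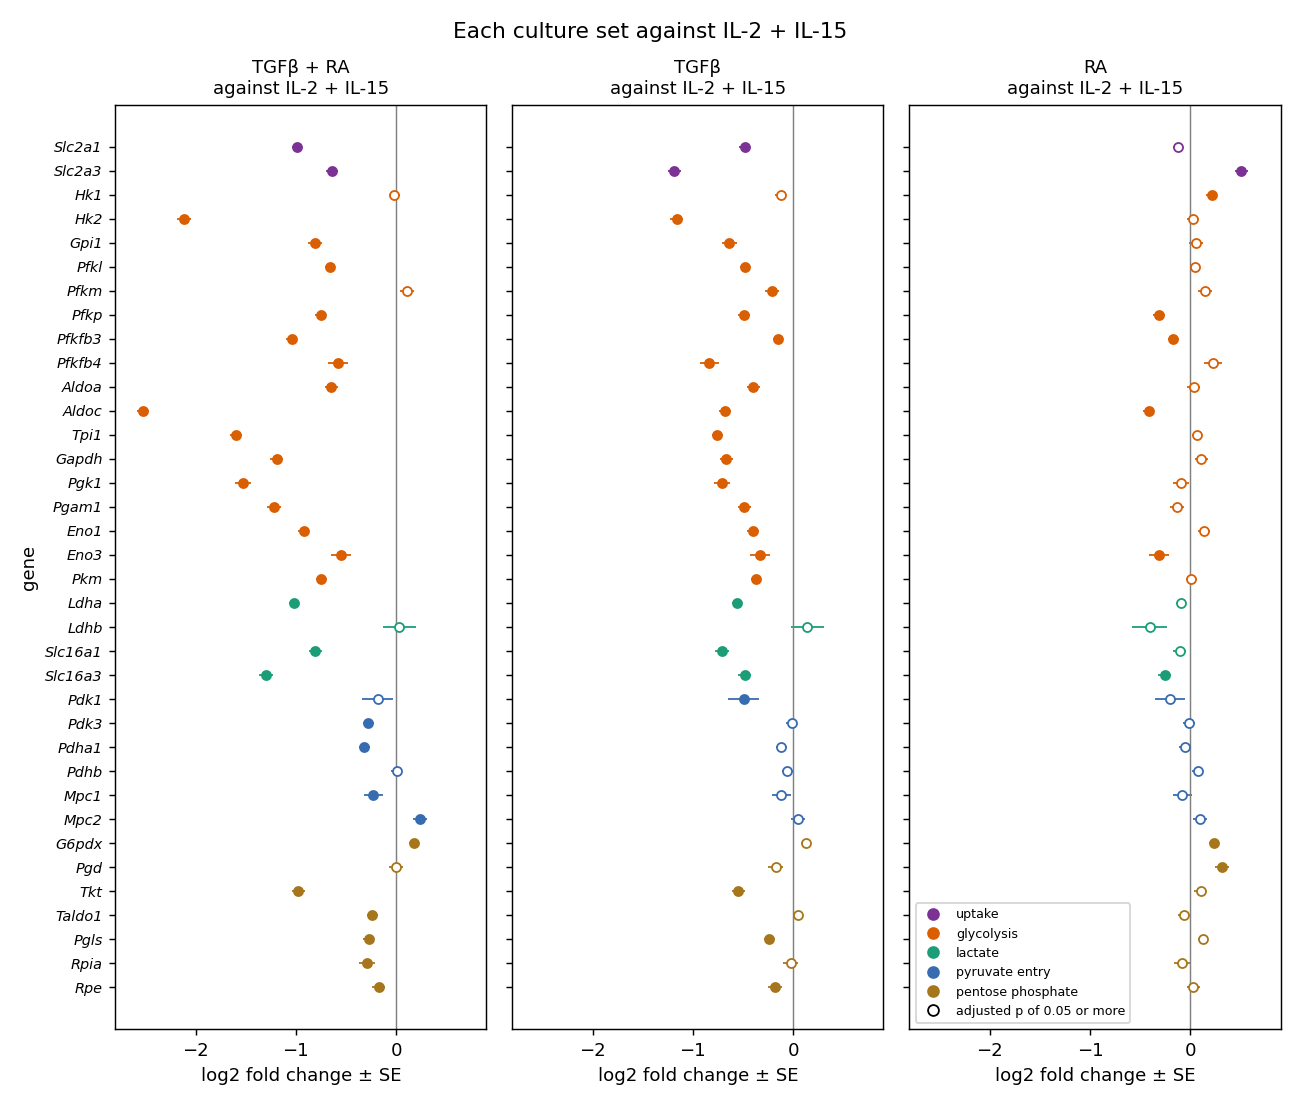
Log2 fold change of each member, by branch, in TGFβ + RA, TGFβ and RA, each against IL-2 + IL-15, with bars of 1 SE from edgeR and filled points where the member was called. In the TGFβ + RA comparison Aldoc (-2.52), Hk2 (-2.12), Tpi1 (-1.59) and Pgk1 (-1.53) lie lowest, and most pyruvate entry and pentose phosphate genes lie close to 0.

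The DNA before the start of Hk2, Pgk1 and Ldha, which are among the members that fell with TGFβ + RA, is shown because HIF-1 is known to bind the cores ACGTG and GCGTG, and Myc the E-box CACGTG, in glycolytic promoters. That of Rpe, whose change was small, is shown beside them. Each runs 5′ to 3′ on the gene's strand over the 250 bases before the RefSeq start (GRCm38.p6): Hk2 at chr6:82774455-82774704, minus strand, Pgk1 at chrX:106186850-106187099, plus strand, Ldha at chr7:46845554-46845803, plus strand, and Rpe at chr1:66700581-66700830, plus strand. Capitals mark ACGTG or GCGTG on either strand.
Hk2: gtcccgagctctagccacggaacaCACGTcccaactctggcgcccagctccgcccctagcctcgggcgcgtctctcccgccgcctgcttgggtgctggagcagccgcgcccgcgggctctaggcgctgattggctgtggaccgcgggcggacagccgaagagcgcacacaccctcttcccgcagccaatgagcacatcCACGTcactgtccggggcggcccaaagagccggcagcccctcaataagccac
Pgk1: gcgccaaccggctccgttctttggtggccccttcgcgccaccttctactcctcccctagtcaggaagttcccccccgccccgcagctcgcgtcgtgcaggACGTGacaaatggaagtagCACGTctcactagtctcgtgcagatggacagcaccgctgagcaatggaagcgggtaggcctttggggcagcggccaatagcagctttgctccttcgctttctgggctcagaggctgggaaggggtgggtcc
Ldha: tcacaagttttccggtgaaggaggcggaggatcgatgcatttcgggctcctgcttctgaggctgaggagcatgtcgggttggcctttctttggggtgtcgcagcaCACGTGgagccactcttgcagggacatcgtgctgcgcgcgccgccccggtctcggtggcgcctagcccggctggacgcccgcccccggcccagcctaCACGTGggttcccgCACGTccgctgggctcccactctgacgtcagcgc
Rpe: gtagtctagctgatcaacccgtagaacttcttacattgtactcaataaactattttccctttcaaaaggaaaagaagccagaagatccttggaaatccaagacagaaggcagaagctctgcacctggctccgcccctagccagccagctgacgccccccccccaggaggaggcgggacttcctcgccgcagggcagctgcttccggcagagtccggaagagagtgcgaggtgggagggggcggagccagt
The Hk2 window holds ACGTG at 2 positions, Pgk1 at 2, Ldha at 5 counted over both strands, of which 4 lie in 2 copies of CACGTG, which overlaps ACGTG, and Rpe at 0. Of the 35 members with an entry, 11 (31.4%) held ACGTG, against 16.6% of the 27025 genes with one and 22.1% of those that were tested. GCGTG was in 23 (65.7%), against 28.2% and 45.8%, either core in 29 (82.9%), against 38.6% and 57.0%, and CACGTG in 3 (8.57%), against 6.05% and 8.30%. Where a gene had several starts the first listed was used, as for 11 members. The windows shown do not stand for the members as a whole: Tpi1 (-1.59), Gpi1 (-0.81), Pkm (-0.75) and Aldoa (-0.65) were lower in TGFβ + RA than in IL-2 + IL-15 with neither core in their windows, and Pfkm, which was not called (0.11), held ACGTG at 2 positions and CACGTG at 1. These are matches of letters in a fixed window and no measure of binding.

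With TGFβ, the lactate genes other than Ldhb fell. Ldha encodes the lactate dehydrogenase subunit that favours making lactate from pyruvate, and Ldhb the subunit that favours the reverse. Ldha, whose promoter is shown with those of Hk2 and Pgk1, had 363, 372 and 372 CPM in TGFβ + RA, 501, 496 and 522 in TGFβ, 703, 729 and 664 in RA, and 749, 735 and 756 in IL-2 + IL-15. Its groups did not overlap, in the order TGFβ + RA, TGFβ, RA and IL-2 + IL-15. The log2 fold change was -1.02 ± 0.047 for TGFβ + RA relative to IL-2 + IL-15 (adjusted p = 6.70e-10 in edgeR's quasi-likelihood test), -0.56 ± 0.046 for TGFβ against IL-2 + IL-15, -0.46 ± 0.046 for TGFβ + RA against TGFβ and -0.92 ± 0.047 against RA, with an interaction of -0.36 ± 0.065.

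Ldhb had 6.09, 6.27 and 7.21 CPM in TGFβ + RA, 5.40, 7.85 and 7.93 in TGFβ, 4.05, 5.42 and 4.995 in RA, and 5.52, 7.40 and 6.29 in IL-2 + IL-15. The RA libraries lay below those of TGFβ + RA and IL-2 + IL-15 but overlapped those of TGFβ, and the other groups overlapped. TGFβ + RA against RA called Ldhb higher (0.44 ± 0.17, adjusted p = 0.0424 in edgeR's quasi-likelihood test) and Ldha lower, but the call of Ldhb was lost in 5 of 12 alternatives, and its lowest library held 89 counts. Per kilobase, Ldha exceeded Ldhb by 26.9 times in TGFβ + RA, 34.6 in TGFβ, 69.2 in RA and 55.7 in IL-2 + IL-15.

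The 2 lactate transporters both fell with TGFβ. Slc16a3 encodes MCT4, which exports lactate from glycolytic cells, and Slc16a1 encodes MCT1, which carries lactate and pyruvate either way. Slc16a3 (ENSMUSG00000025161; chr11:120948480-120960868, plus strand) had 16.8, 17.04 and 15.2 CPM in TGFβ + RA, 28.4, 29.1 and 28.8 in TGFβ, 35.04, 35.2 and 30.9 in RA, and 40.6, 38.2 and 41.8 in IL-2 + IL-15. Its TGFβ + RA libraries lay lowest, those of TGFβ next, then RA and IL-2 + IL-15, with no overlap. It was lower in TGFβ + RA than in IL-2 + IL-15 (-1.30 ± 0.068), TGFβ (-0.82 ± 0.069) and RA (-1.05 ± 0.069), lower in TGFβ (-0.48 ± 0.065) and in RA (-0.25 ± 0.065) than in IL-2 + IL-15, and its interaction was -0.56 ± 0.095 (adjusted p = 0.00102 in edgeR's quasi-likelihood test). The RA call was lost in 1 of 12 alternatives.

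Slc16a1 had 31.7, 34.04 and 36.4 CPM in TGFβ + RA, 37.1, 36.4 and 35.96 in TGFβ, 55.97, 57.2 and 53.2 in RA, and 56.1, 57.5 and 65.3 in IL-2 + IL-15. Here TGFβ + RA overlapped TGFβ, and RA overlapped IL-2 + IL-15, so the libraries fell into those with TGFβ and those without. The log2 fold change was -0.71 ± 0.065 for TGFβ and -0.81 ± 0.066 for TGFβ + RA relative to IL-2 + IL-15, and neither TGFβ + RA against TGFβ nor the interaction was called.

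Pyruvate entry genes changed by small amounts. Its 6 genes summed to 440.4 ± 12.1 CPM in TGFβ + RA, 418 ± 18.2 in TGFβ, 468 ± 45.3 in RA and 499 ± 47.8 in IL-2 + IL-15 (SD, n = 3 each). Pdk1 and Pdk3 encode kinases that switch the pyruvate dehydrogenase complex off, Pdha1 and Pdhb its E1 subunits, and Mpc1 and Mpc2 the carrier that brings pyruvate through the inner membrane. Pdk1 had 191, 213 and 214 CPM in TGFβ + RA, 147, 177 and 175 in TGFβ, 160.4, 202 and 249 in RA, and 181, 253 and 269 in IL-2 + IL-15. The TGFβ libraries lay below those of IL-2 + IL-15 and of TGFβ + RA, and the other groups overlapped. Only TGFβ against IL-2 + IL-15 was called for Pdk1 (-0.49 ± 0.15, adjusted p = 0.0189 in edgeR's quasi-likelihood test), and that was lost in 3 of 12 alternatives. TGFβ + RA against TGFβ gave 0.31 ± 0.15 (adjusted p = 0.124) and the interaction 0.51 ± 0.22 (adjusted p = 0.117), and these were called in 3 of 12 and 4 of 17 alternatives, the replicate block among them in both.

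Pdk3 had 29.5, 29.2 and 26.7 CPM in TGFβ + RA, 35.2, 32.9 and 34.5 in TGFβ, 33.2, 35.8 and 33.6 in RA, and 34.3, 35.1 and 34.2 in IL-2 + IL-15. All TGFβ + RA libraries lay below the rest, which overlapped. Pdk3 was lower in TGFβ + RA than in IL-2 + IL-15 (-0.28 ± 0.056), TGFβ (-0.26 ± 0.056) and RA (-0.27 ± 0.056), and its interaction of -0.25 ± 0.079 (adjusted p = 0.0408 in edgeR's quasi-likelihood test) was lost in 9 of 17 alternatives. Pdha1 had 98.4, 103 and 102 CPM in TGFβ + RA, 115, 118 and 116 in TGFβ, 117, 130.2 and 117 in RA, and 119, 135 and 124 in IL-2 + IL-15. The TGFβ + RA libraries again lay lowest, with log2 fold changes of -0.32 ± 0.056 against IL-2 + IL-15, -0.20 ± 0.056 against TGFβ and -0.27 ± 0.056 against RA. Pdhb averaged 72.7 ± 4.31, 69.6 ± 1.86, 76.2 ± 0.660 and 72.5 ± 3.06 CPM in TGFβ + RA, TGFβ, RA and IL-2 + IL-15 and was called in no comparison.

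The 2 carrier subunits were called in opposite directions in TGFβ + RA against IL-2 + IL-15. Mpc1 had 11.5, 12.5 and 13.2 CPM in TGFβ + RA, 13.7, 12.4 and 14.3 in TGFβ, 13.7, 13.4 and 14.4 in RA, and 16.5, 13.5 and 13.7 in IL-2 + IL-15. Mpc2 had 20.7, 19.6 and 19.6 CPM in TGFβ + RA, 18.0004, 16.7 and 17.9 in TGFβ, 17.7, 18.9 and 17.7 in RA, and 17.95, 17.1 and 15.8 in IL-2 + IL-15. The TGFβ + RA libraries lay below those of IL-2 + IL-15 for Mpc1 and above all others for Mpc2. The log2 fold changes were -0.23 ± 0.095 for Mpc1 (adjusted p = 0.0494 in edgeR's quasi-likelihood test), lost in 9 of 12 alternatives, and 0.23 ± 0.069 for Mpc2 (adjusted p = 0.00937), kept in all 12. Mpc2 was also called higher in TGFβ + RA than in TGFβ (0.18, adjusted p = 0.0457 in edgeR's quasi-likelihood test), a call lost in 9 of 12 alternatives. Reads of Mpc1 are uncertain, since 2 pseudogene copies held 11.9% as many counts as Mpc1 itself, and other genes are annotated on the opposite strand over 23.1% of its exon bases.

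In the pentose phosphate pathway Tkt fell most. Tkt, transketolase, belongs to the non-oxidative steps that return pentoses to glycolysis, with Taldo1, Rpia and Rpe, while G6pdx, Pgls and Pgd carry the oxidative steps that make NADPH. Tkt (ENSMUSG00000021957; chr14:30548359-30574720, plus strand) had 161, 178 and 171 CPM in TGFβ + RA, 229, 228 and 231 in TGFβ, 380.3, 379.5 and 319.8 in RA, and 337, 339 and 329 in IL-2 + IL-15. The TGFβ + RA libraries lay lowest, the TGFβ libraries next, and those of RA and IL-2 + IL-15 overlapped above them. Its log2 fold change was -0.98 ± 0.063 for TGFβ + RA relative to IL-2 + IL-15 (adjusted p = 1.72e-08 in edgeR's quasi-likelihood test), -0.55 ± 0.063 for TGFβ against IL-2 + IL-15, -0.43 ± 0.063 for TGFβ + RA against TGFβ and -1.08 ± 0.063 against RA, with an interaction of -0.54 ± 0.089. The other 6 were within -0.29 (Rpia) and 0.18 (G6pdx) for TGFβ + RA relative to IL-2 + IL-15.

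Pgd, 6-phosphogluconate dehydrogenase, had 104, 102 and 93.3 CPM in TGFβ + RA, 91.2, 86.3 and 87.5 in TGFβ, 136, 115 and 122 in RA, and 109.98, 93.2 and 95.8 in IL-2 + IL-15. RA libraries lay above all others and those of TGFβ lowest. Pgd was higher in RA than in IL-2 + IL-15 (0.32 ± 0.072) and lower in TGFβ + RA than in RA (-0.32 ± 0.073). G6pdx averaged 48.2 ± 1.13 CPM in TGFβ + RA, 46.5 ± 0.424 in TGFβ, 50.2 ± 3.14 in RA and 42.5 ± 0.712 in IL-2 + IL-15, and was higher in TGFβ + RA (0.18 ± 0.05) and RA (0.24 ± 0.05) than in IL-2 + IL-15. TGFβ + RA lowered Pgls (-0.27), Taldo1 (-0.24), Rpia (-0.29) and Rpe (-0.18) relative to IL-2 + IL-15, the call of Rpe being lost in 7 of 12 alternatives. Pgls averaged 51.3, 52.7, 68.01 and 62.1 CPM in TGFβ + RA, TGFβ, RA and IL-2 + IL-15, Taldo1 147, 179, 166 and 173, Rpia 35.8, 42.9, 41.1 and 43.7, and Rpe 35.7, 35.6, 41.2 and 40.4.

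**Figure D5:**
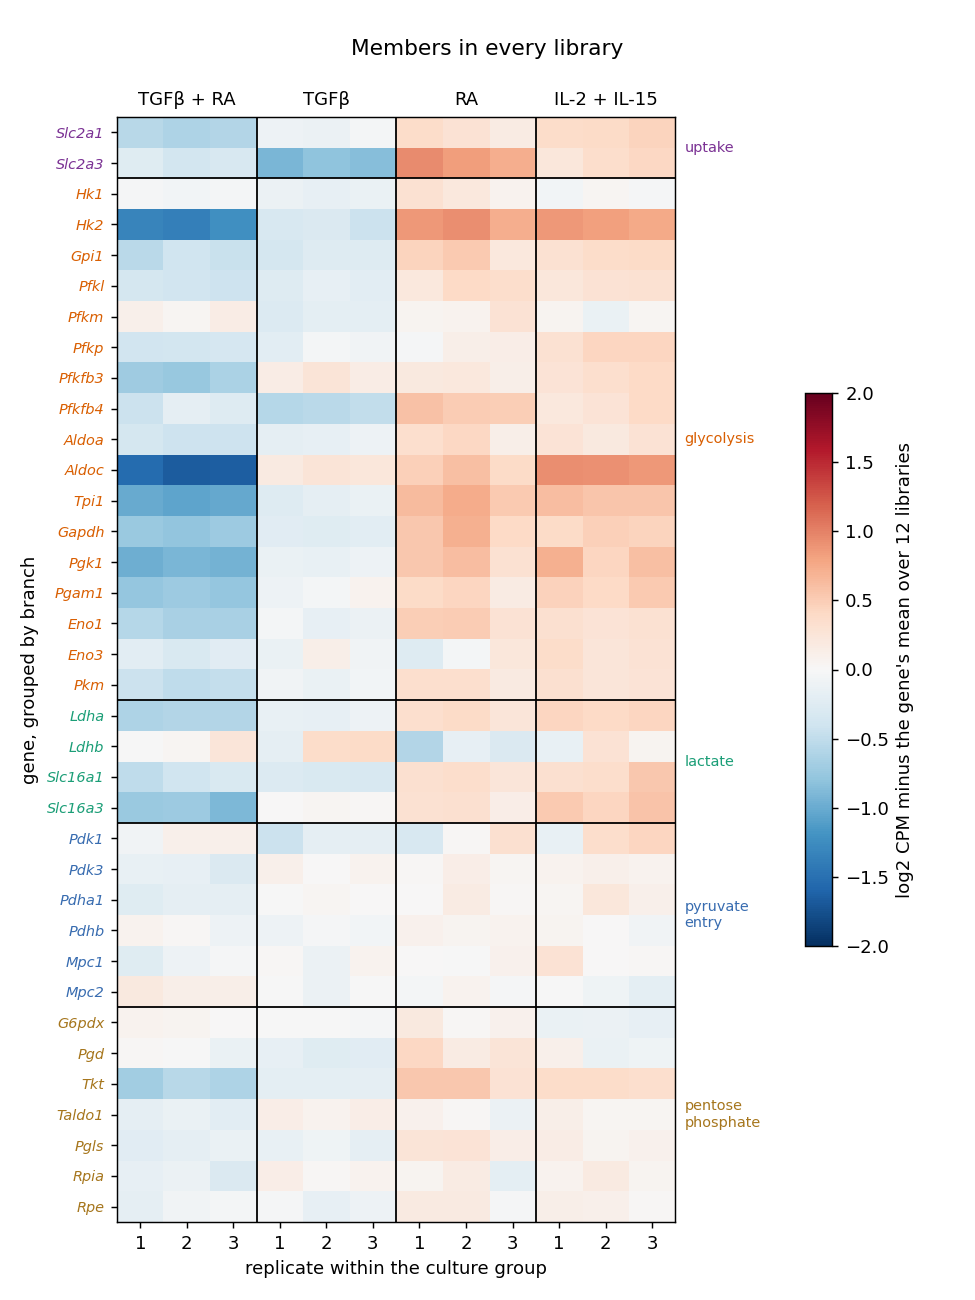
Level of each member in each of the 12 libraries as log2 CPM minus the gene's mean over the 12 libraries, by branch, with TGFβ + RA libraries at the left and IL-2 + IL-15 at the right (colours end at 2 in either direction). The 3 libraries of TGFβ + RA share the low values of glycolysis, uptake and lactate genes.

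Other genes of the same pathways, from a list of 71 of which 45 were tested, moved in both directions. In TGFβ + RA against IL-2 + IL-15, 10 were higher and 23 lower (22.2% and 51.1%), beside 30.8% and 32.4% of all genes. TGFβ gave 10 higher and 12 lower against IL-2 + IL-15 (22.2% and 26.7%), near the 20.7% and 22.4% of all genes. RA gave 5 and 12 (11.1% and 26.7%, beside 12.4% and 14.3%). TGFβ + RA gave 4 and 15 against TGFβ (8.89% and 33.3%, beside 20.3% and 22.7%) and 10 and 20 against RA (22.2% and 44.4%, beside 29.4% and 30.8%). The interaction gave 4 above 0 and 9 below (8.89% and 20%, beside 6.95% and 12.3%). Slc2a6, a glucose transporter of the lysosome, averaged 2.62 ± 0.481 CPM in TGFβ + RA, 8.38 ± 0.720 in TGFβ, 9.81 ± 2.05 in RA and 10.8 ± 0.956 in IL-2 + IL-15, a log2 fold change of -2.07 ± 0.17 against IL-2 + IL-15, -1.70 ± 0.17 against TGFβ and -1.92 ± 0.17 against RA, with an interaction of -1.55 ± 0.23. Emb (embigin), an accessory protein of monocarboxylate transporters, was lower in TGFβ + RA than in IL-2 + IL-15 (-0.64 ± 0.057) and TGFβ (-0.68 ± 0.057), and lower in RA than in IL-2 + IL-15 (-0.40 ± 0.056).

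Galm, which turns glucose between its anomers, averaged 36.4 ± 3.02 CPM in TGFβ + RA, 58.7 ± 3.58 in TGFβ, 7.53 ± 0.817 in RA and 17.002 ± 2.52 in IL-2 + IL-15. It was higher in TGFβ than in IL-2 + IL-15 (1.79 ± 0.10), higher in TGFβ + RA than in RA (2.28 ± 0.11) and lower in RA than in IL-2 + IL-15 (-1.18 ± 0.12). Idnk, gluconate kinase, was higher in TGFβ + RA than in IL-2 + IL-15 (0.75 ± 0.067). Lower in TGFβ than in IL-2 + IL-15 were Pgm2 (-0.54 ± 0.058) and Pck2 (-0.61 ± 0.064), the latter the mitochondrial PEP carboxykinase. Prps1, which makes phosphoribosyl pyrophosphate from ribose 5-phosphate, was lower in TGFβ + RA than in TGFβ (-0.69 ± 0.062), and Me2, mitochondrial malic enzyme, was lower in TGFβ + RA than in RA (-0.53 ± 0.048) with an interaction of -0.41 ± 0.068. Pgm2l1, glucose 1,6-bisphosphate synthase, was higher in RA than in IL-2 + IL-15 (0.43 ± 0.055), with an interaction of -0.40 ± 0.078.

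Among regulators outside the 36 genes, Hif1a, the regulated subunit of HIF-1, averaged 152 ± 6.41 CPM in TGFβ + RA, 221 ± 18.4 in TGFβ, 327 ± 6.88 in RA and 318 ± 26.4 in IL-2 + IL-15. Its log2 fold change was -1.07 ± 0.069 for TGFβ + RA and -0.52 ± 0.068 for TGFβ against IL-2 + IL-15, with an interaction of -0.58 ± 0.10. Myc averaged 115 ± 2.48, 104 ± 4.91, 280.5 ± 11.5 and 232 ± 4.26 CPM in that order of groups: it was lower in TGFβ + RA (-1.01 ± 0.047) and TGFβ (-1.15 ± 0.048) than in IL-2 + IL-15, and slightly higher in TGFβ + RA than in TGFβ (0.15 ± 0.048) and in RA than in IL-2 + IL-15 (0.28 ± 0.047). Txnip, an inhibitor of glucose uptake, averaged 1518 ± 24.7, 1324 ± 4.29, 879 ± 155 and 649 ± 32.6 CPM and was higher in TGFβ + RA (1.23 ± 0.10), TGFβ (1.03 ± 0.095) and RA (0.44 ± 0.094) than in IL-2 + IL-15. The whole list held 18 genes (Hif1a, Arnt, Myc, Mycn, Max, Mlxip, Mlx, Txnip, Arrdc4, Egln1, Egln3, Vhl, Bnip3, Bnip3l, Ddit4, Vegfa, Ankrd37 and P4ha1). Unlike Hif1a and Myc, Arnt and Max of this list averaged highest in TGFβ + RA and lowest in IL-2 + IL-15. Arnt averaged 94.998, 61.5, 83.6 and 57.98 CPM in TGFβ + RA, TGFβ, RA and IL-2 + IL-15, and Max 139, 104, 86.2 and 83.9. The roles of the 18 genes differ, so counts by direction do not give a direction of HIF or Myc activity, which was not tested. Of the 18, 7 were higher and 10 lower in TGFβ + RA than in IL-2 + IL-15 (38.9% and 55.6%, beside 30.8% and 32.4% of all genes). TGFβ gave 4 and 6 (22.2% and 33.3%, beside 20.7% and 22.4%) and RA 7 and 1 (38.9% and 5.56%, beside 12.4% and 14.3%), both against IL-2 + IL-15, and the interaction 2 above 0 and 5 below (11.1% and 27.8%, beside 6.95% and 12.3%).

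Genes of the proliferation list summed to less in TGFβ + RA, TGFβ and RA than in IL-2 + IL-15. The 10 genes of that list (Mki67, Top2a, Pcna, Mcm2, Mcm3, Mcm5, Rrm2, Ccnb1, Cdk1 and Birc5) summed to 433 ± 23.4 CPM in TGFβ + RA, 1592 ± 67.97 in TGFβ, 1325 ± 188 in RA and 2175 ± 106 in IL-2 + IL-15 (SD, n = 3 each). Of the 10, 10 were lower in TGFβ + RA than in IL-2 + IL-15, 9 in TGFβ and 9 in RA (100%, 90% and 90%). The shares of all genes were 32.4%, 22.4% and 14.3%. In the interaction 10 were called below 0 (100%, beside 12.3% of all genes). RA without TGFβ thus went with a lower proliferation sum (60.9% of the IL-2 + IL-15 mean) but not with a lower sum of the 36 genes (102%). In TGFβ the 2 sums were 73.2% and 71.1% of the IL-2 + IL-15 mean, and in TGFβ + RA 19.9% and 58.1%. The part of proliferation in the changes of the 36 genes was not tested. Ribosomal protein genes also took a smaller part of the counts with TGFβ, 4.23% to 4.82% in TGFβ + RA and 5.12% to 5.33% in TGFβ, against 8.0046% to 9.20% in RA and 7.86% to 8.40% in IL-2 + IL-15, and its part was not tested.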

How the data were processed

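Whole-transcriptome RNA of 12 samples of cultured CD8 T cells was counted per gene. Per the labels' protocols, RNA was isolated with RNeasy Micro and libraries were made with a TruSeq stranded mRNA kit. The deposited values are raw counts of reads per gene, made with STAR and featureCounts on GRCm38 per the submitters' processing notes; versions, strand setting and handling of reads with several matches are not given in the sources used here. Without the strand setting, reads of antisense genes cannot be told apart, which touches over 5% of exon bases in 6 members (Gpi1, Pfkp, Pdha1, Mpc1, G6pdx and Rpe). Other genes are also annotated on the same strand over 20.6% of the exon bases of Pgls, 15.3% of Pkm and 10.2% of Pfkm. Reads there are uncertain under any strand setting. Symbols, coordinates and exon lengths came from GENCODE for GRCm38, which holds 45143 of the 46078 identifiers (97.971%); 0 entries name no gene and 0 sample columns were unused. Samples are labelled as biological replicates, with nothing on whether separate animals were used, so the p-values reflect only how these libraries vary, which may be technical.

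From the counts, edgeR 4.0.16 in R 4.3.3 (filterByExpr, minimum count 10, TMM scaling, 14009 genes kept, 1 mean per group over all 12 libraries, 8 residual degrees of freedom) gave 5 comparisons of groups and the interaction. Log2 fold changes use a prior count of 0.125, and the SE is the absolute log2 fold change divided by the root of F. The script was tested on simulated data. Replicates differed beyond counting noise (chi-square per degree of freedom 3.79 to 24.0). Same-numbered libraries of RA and IL-2 + IL-15 deviated together across genes (r = 0.34, 0.13 and 0.27). Those of TGFβ + RA and TGFβ gave r = 0.098, 0.13 and 0.17, and over all pairs of groups r ran from -0.0039 to 0.34. Libraries with different numbers were not compared in this way, so these values cannot show that libraries were paired. The labels say nothing of pairing. Alternatives were DESeq2 size factors, library totals alone, no filter, the Wald test of DESeq2 1.42.0, a replicate block, only the compared groups, and leaving out each library. All 36 members are named; in each branch and comparison the called member with the largest change, and related pairs called in opposite directions, have every library's value. Of the other pathway genes, up to 3 per comparison with the smallest adjusted p and a mean of at least 5 CPM are named. The members, the lists and the rule were chosen with earlier results of these data known, so no list was tested.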

Additional observations from a re-analysis of the deposited data

Results flagged for a closer look

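The effect of RA on 15 of the 36 genes (41.7%) differed between cultures with TGFβ and cultures without it, by the interaction test of edgeR across all genes. All 15 were below 0, beside 12.3% of all genes, and 0 were above, beside 6.95%. Each value is the log2 effect of RA with TGFβ minus its effect without TGFβ, with the SE. Of the uptake genes, Slc2a1 had -0.38 ± 0.075. In glycolysis the values were -0.98 ± 0.10 for Hk2, -0.72 ± 0.078 for Pfkfb3, -0.29 ± 0.093 for Aldoa, -1.43 ± 0.083 for Aldoc, -0.90 ± 0.078 for Tpi1, -0.63 ± 0.093 for Gapdh, -0.73 ± 0.11 for Pgk1, -0.60 ± 0.10 for Pgam1, -0.65 ± 0.083 for Eno1 and -0.39 ± 0.075 for Pkm. Among the lactate genes Ldha had -0.36 ± 0.065 and Slc16a3 -0.56 ± 0.095. Pdk3 had -0.25 ± 0.079 in pyruvate entry and Tkt -0.54 ± 0.089 in the pentose phosphate pathway. The calls of Aldoa and Pdk3 were lost in 12 and 9 of 17 alternatives, and the other 13 were kept in all. All 10 proliferation genes were also called below 0 in the interaction, beside 12.3% of all genes. Their part in the values of the 15 genes was not tested. With groups of 3 libraries, single libraries were not screened for outlying values.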

How the results depend on the processing

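Of the alternatives computed for those of the 216 pairs of gene and comparison that were called in at least 1 setting or named, 1910 kept direction and side of the threshold, 104 lost the call, 51 gained one and 4 changed sign. The sign changed for Hk1 in TGFβ + RA relative to IL-2 + IL-15 with library totals alone (0.052), for Gpi1 in RA against IL-2 + IL-15 with 1 library left out (-0.0014 to 0.15) and for the interaction of Slc2a3 (-0.034 to 0.070). Counts of lower members stayed within 1.5 times the reported ones except in RA against IL-2 + IL-15 (5), which came to 3 when only those 2 groups entered and 2 to 4 with 1 library left out (2 without IL-2 + IL-15 replicate 3, 3 without IL-2 + IL-15 replicate 2 or RA replicate 1 or 2). Higher members there (4) came to 4 to 9, with 9 reached without RA replicate 3. For TGFβ against IL-2 + IL-15 (0 higher) there was 1, G6pdx, with DESeq2 size factors, with library totals alone, with the replicate block and with only the 2 groups. For TGFβ + RA against TGFβ (3 higher) there were 5 with the replicate block, 5 with only the 2 groups, 2 with the DESeq2 Wald test and 2 to 3 with 1 library left out. The block called Pdk1 there (0.31, adjusted p = 0.00786 against 0.124) and in the interaction (0.51, adjusted p = 0.00724 against 0.117). For TGFβ + RA against RA (1 higher) there were 2 with library totals alone and 0 to 1 with 1 library left out (0 without RA replicate 1 or 3 or any TGFβ + RA library). In the interaction (0 above) there was 1 with no filter on low counts, 1 with the replicate block and 0 to 2 with 1 library left out (2 without RA replicate 3, 1 without IL-2 + IL-15 replicate 1). The cause of these changes was not tested. Same-numbered libraries of TGFβ + RA and TGFβ gave r = 0.098, 0.13 and 0.17, and those of TGFβ and IL-2 + IL-15 0.17, 0.10 and 0.049. Over all pairs of groups r ran from -0.0039 to 0.34. Libraries with different numbers were not compared, so pairing cannot be told from these values. The block therefore stands only as an alternative in every comparison. It changed no other count by over 1.5 times. Another scaling moved the median of all genes by at most 0.085 on the log2 scale. Ldhb, with 89 counts in its lowest library, had the largest SE of the 36 members in each of the 6 comparisons (0.17 to 0.24); no limit of detection was computed.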

Other observations

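Pdk1 was lowest in replicate 1 of every group, at 191 CPM in TGFβ + RA, 147 in TGFβ, 160.4 in RA and 181 in IL-2 + IL-15, against group means of 206, 166, 204 and 234. The labels do not say whether replicate numbers mark a shared culture day or animal, and the pattern was noticed in the data. With the replicate number as a block, Pdk1 was called higher in TGFβ + RA than in TGFβ (adjusted p = 0.00786 in edgeR's quasi-likelihood test, against 0.124 without the block) and above 0 in the interaction (0.00724 against 0.117).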
